A study of Mus musculus with 7 samples.

Results

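The comparison described here is day 4 of a stepwise differentiation of mouse embryonic stem cells, after exposure to Noggin, Wnt3a and Activin A, against day 2, just before that exposure. It takes the 4 libraries labelled day 2 or day 4, 2 a day, out of 7 in the study, which measured polyadenylated RNA in bulk on days 0, 2, 4 and 6. All libraries come from the same line, Bry-GFP, named for a GFP reporter at Brachyury (T), and the labels give no genetic change between the groups. On day 0 the cells grew over feeder layers of mouse embryonic fibroblasts, in serum with LIF. For day 2 they had been moved off the feeders into serum-free suspension at 75000 cells per mL for 48 h, where they clump into embryoid bodies. For day 4 the same cultures had a further 48 h in 150 ng/mL Noggin, 25 ng/mL Wnt3a and 9 ng/mL Activin A. The single day 6 library followed 48 h of basic FGF at 10 ng/mL. There is no day 4 sample without the factors, so the 3 factors and the extra 48 h in culture cannot be told apart, nor can the factors be told from each other. A single reporter line was used. The labels call the replicates biological and say no more of their origin, so p-values measure the spread between these samples.

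As background, the primitive streak is the region of the gastrulating embryo where epiblast cells leave to become mesoderm and endoderm. Wnt and Nodal signals switch on streak genes such as T, Mixl1 and Eomes, and Activin is used in culture because it acts through the same receptors as Nodal. The front end of the streak, where Nodal signalling is strongest, gives definitive endoderm and the notochord, which later pattern the neural tube with Hedgehog. Noggin binds BMP ligands and keeps them from their receptors, and low BMP signalling also lets epiblast take a neural course.

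Levels below are log2 of 1 plus scaled reads per gene, converted from the values the authors deposited, in the order replicate 1 then replicate 2. They are not per length, so they are compared between libraries and not between genes. A change is the day 4 mean minus the day 2 mean on this log2 scale, which understates the change of low genes, and a p is adjusted over all genes tested by limma. The fit holds all 7 libraries, so an SE or p also carries the difference between the day 0 replicates. A gene "rose" or "fell" only where that adjusted p was under 0.05. Rough depth was 3280000 and 2640000 reads on day 2 and 3010000 and 4340000 on day 4, against up to 5300000 elsewhere in the study. At these depths 3 reads of a gene would give a level between 1.81 and 2.30, and lower values cannot be told from none. Of 184 genes read by name with an annotated position, 51 share exon sequence with a gene on the other strand (among them Axin2, Lef1, Shh, Krt8, Slc2a1 and Ttn), and it is not known here whether counting used strand, so reads of such pairs may be mixed. Across 11800 genes, which are not independent, Pearson correlations were 0.946 between the day 2 replicates, 0.96 between the day 4 replicates and 0.868 to 0.918 across the days.

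The genes that passed the threshold between day 2 and day 4 covered several developmental programmes. Of 21813 genes tested, 782 passed the threshold (3.59%), 317 of them higher on day 4 (1.45%) and 465 lower (2.13%). In the same limma fit 4713 had an unadjusted p under 0.05, so 3.59% is not the share of genes that differed. Day 4 gained regulators of axial mesoderm and neural progenitors, a few endoderm genes and genes of glycolysis. Lower on day 4 were genes of the stem cell state, some enzymes of DNA methylation and genes of fibroblasts and their matrix. The median change was 1.72 among the risers and -1.91 among the fallers, and 0 over all genes tested. The values look quantile normalized, which by itself holds the median over all genes near 0. At least log2 of 3 separated the days for 69 risers and 78 fallers. In none of the 782 did any day 4 library overlap a day 2 library. The smallest change that passed was 0.52. Markers of feeder fibroblasts fell in the same libraries, from a summed level of 10.77 and 10.30 to 8.71 and 8.68, and their part in the other changes was not tested. In bulk RNA, fewer cells of a type and less RNA per cell cannot be told apart, here or for any gene below.

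These calls rest on few libraries. Using only the 4 libraries of days 2 and 4, limma called 0 genes, with 3743 at an unadjusted p under 0.05 and a lowest adjusted p of 0.052. Limma also called 0 without day 0 replicate 1 or 2, day 2 replicate 1 or 2, or day 4 replicate 1 (3706 to 5099 genes at an unadjusted p under 0.05), and 554 without day 4 replicate 2, 145 of them among the 782. The direction of each of the 782 was the same in all of these fits. With no overlap between the days it could not have turned, so this adds no support. With genes of low values removed the count was larger, 1422 or 1621 by the filter used. Among genes named below, a pseudocount of 8 ended the calls of Lef1, Tdgf1, Id4, Grem1, Notch1, Pkm, Actg1, mt-Nd1, Lox, Fas, Jun, Peg3, Fbxl4 and Cphx1 (adjusted p 0.0502 to 0.129). It brought Dkk1, Bmp7, Fgfr3, Foxa1, Sox17, Shh and Lgr5, among others, under the threshold (0.0259 to 0.0422).

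How far the replicates of each gene lay apart set what could be seen. Over the 11795 genes with a mean of at least 10 scaled reads over the 4 libraries, the median difference between replicates was 0.29 on day 2 and 0.25 on day 4, and the median difference between the day means was 0.36. Day 2 was the wider of the pair for 55.7% of these genes. The difference between days exceeded both replicate differences for 44.2%, and for 56.9% the libraries of the days did not overlap. A difference between means of 2 libraries varies less than one between single libraries, so these measures are unlike, here and by level below. Spread shrank with level. Under 10 scaled reads the median replicate differences were 0.48 and 0.49 against a difference between days of 0.54, and 1.39% of the genes passed. At 1000 and over they were 0.19 and 0.16 against 0.23, and 8.22% of the genes passed.

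**Figure D1:**
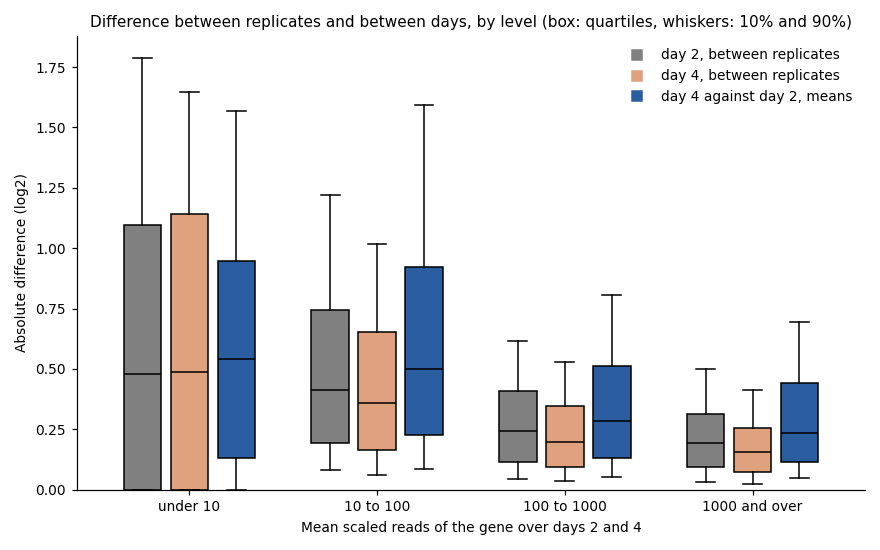
Absolute differences on the log2 scale (vertical axis) by the mean scaled reads of the gene over days 2 and 4 (horizontal axis), for the 2 replicates of day 2 (grey), the 2 replicates of day 4 (orange) and the means of the days (blue). Boxes are quartiles over genes and whiskers the 10% and 90% points. The blue medians lie a little above the others in each group of genes. They are 0.54 against 0.48 and 0.49 in the lowest and 0.23 against 0.19 and 0.16 in the highest. Blue values compare means of 2 libraries, which vary less than single libraries.

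Some genes were discordant between replicates far beyond this. On day 2, 33 genes stood at 5 or more in a library and below 1 in the other, and on day 4 there were 31. Rptor, a part of the growth-controlling mTORC1 complex, had day 2 levels of 6.61 and 0.43, and Dus2, a tRNA-modifying enzyme, had 0.43 and 5.73. On day 4 Snapc4, a factor for small nuclear RNA genes, had 7.24 and 0.29, and Dynlrb1, a dynein light chain, had 0.86 and 7.66. Eef1g, a subunit of the translation elongation factor, was at 6.40 and 10.99. Genes that every cell uses can thus sit near 0 in a single library, and Gapdh, the glycolysis enzyme, itself ran from 1.85 and 3.44 on day 2 to 3.51 and 7.08 on day 4.

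A gene with both libraries of a day at 0 is for that reason given as listed at 0, with no change. Where 1 library of a day is at 0, or both are under the level of 3 reads (among others Hes5, Wnt7a and Nhlh2 on day 2, Mmp3, Ltbp2, Nov, Agtr2 and Zscan4b on day 4), the change is printed but its size is poorly determined. Of the risers, 46 were listed at 0 in both day 2 libraries and 70 were at or under the level of 3 reads in both. Of the fallers, 29 were listed at 0 in both day 4 libraries and 61 were at or under that level. Among 52 risers below 1 in both day 2 libraries, 8 had been at 3 or more in both day 0 libraries: Necap2, Snapin, Sgsh, Fbxl4, Mib2, Rassf1, Ap1g2 and Nhlrc3, a set picked out after its values were seen. Nhlrc3 went from 6.29 and 6.15 on day 0 to 0.00 and 0.76 on day 2, then to 6.79 and 6.71 on day 4 (adjusted p = 0.00526). Mib2, a ubiquitin ligase, was at 5.20 and 4.60, then listed at 0 in both day 2 libraries, then at 5.41 and 4.93 (adjusted p = 0.00816). Rassf1 had both day 2 libraries listed at 0 and reached 5.55 and 4.21 on day 4, and Fbxl4 likewise at 3.94 and 5.49. Necap2, a part of clathrin coats, read 0.43 in both day 2 libraries and then 5.63 and 4.66. These 5 are among the 15 largest rises of the comparison, and in each of them days 0 and 4 both stood well above day 2.

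The other large rises were developmental regulators and secreted proteins. Nhlh2, a bHLH factor of young neurons (chromosome 3, 102010076 to 102015492, plus strand), went from 1.82 and 0.00 to 8.27 and 6.38, a change of 6.42 (SE 0.86, adjusted p = 0.0184) that was 5.47 to 7.36 without a single library of either day. Wnt7a, a Wnt ligand of neural tissue (chromosome 6, 91363981 to 91411363, minus strand), went from 1.08 and 0.00 to 6.30 and 5.35 (5.29, adjusted p = 0.0115). Scrt2, a zinc finger factor of newborn neurons, had both day 2 libraries listed at 0 and stood at 6.27 and 5.21 on day 4 (adjusted p = 0.00871). Each of these 3 was near or at 0 on day 2 and well above the level of 3 reads in both day 4 libraries. Vtn, the matrix protein vitronectin, had both day 2 libraries listed at 0 and stood at 5.32 and 4.60 on day 4, and Cpxm2 was listed at 0 and stood at 5.56 and 4.56. Hes5, Pkd1l1, Dbx1, Cer1 and Noto complete the 15 and are described with their groups.

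**Figure D2:**
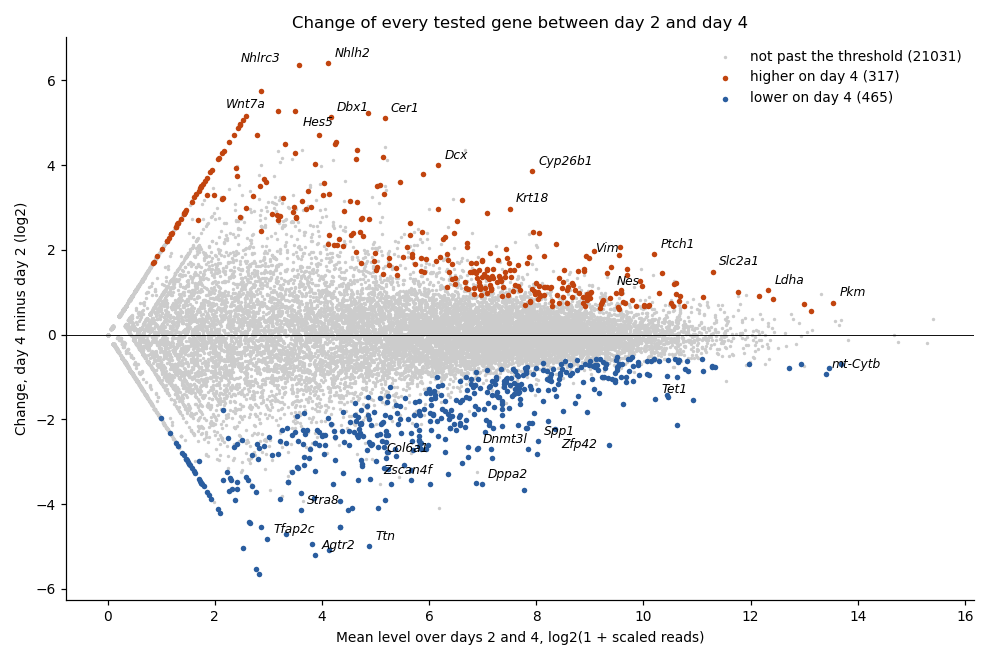
Change between day 2 and day 4 (vertical axis, log2) against the mean level over both days (horizontal axis, log2 of 1 plus scaled reads), each point a gene, with 317 higher genes in red, 465 lower genes in blue and the rest in grey. Genes listed at 0 on a day are plotted at that value and form the straight outer edges on the left. At the highest levels Ldha and Pkm are among the higher genes and mt-Cytb among the lower.

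Among 18 tested genes of the canonical Wnt response, the first of the pathways given as factors, 1 rose and 1 fell. Over all genes the shares were 1.45% and 2.13%, and these stand beside each list below. The median change was 0.49, and 10 had both day 4 libraries above both day 2 libraries (20.9% of all genes did so). Axin2, the feedback inhibitor most used to read Wnt signalling, read 6.90 and 6.42 on day 2 against 6.83 and 7.13 on day 4, so the days overlapped (0.32, adjusted p = 0.577). Lef1, a DNA-binding partner of beta-catenin, fell from 8.33 and 8.15 to 7.47 and 7.27 (-0.87, SE 0.17, adjusted p = 0.0494), a call lost with a pseudocount of 8 (adjusted p = 0.0502). Sfrp1, a secreted Wnt antagonist (chromosome 8, 23411502 to 23449632, plus strand), rose from 9.30 and 8.69 to 10.45 and 10.37 (1.42, adjusted p = 0.029). Both were separated between the days. Dkk1, another secreted antagonist, was at 3.43 and 4.02, then 6.52 and 6.50, which did not pass (adjusted p = 0.0574). Lgr5, a receptor and Wnt target, was at 2.31 and 3.65, then 5.59 and 5.38 (2.51, adjusted p = 0.0733), and passed with a pseudocount of 8 (adjusted p = 0.0422). The feedback inhibitors Nkd1 and Rnf43 were separated upward, with differences of 1.48 (adjusted p = 0.112) and 1.55 (adjusted p = 0.139). Sp5, a direct Wnt target in the streak, was at 2.96 and 2.64, then 4.08 and 4.68 (adjusted p = 0.208). Cdx1 and Cdx2, caudal homeobox targets, differed by 0.90 and 0.18, neither past the threshold. Among 13 tested Wnt ligands Wnt7a alone rose and 0 fell (median 0.39), with the libraries of 5 fully separated upward.

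Of 18 tested genes of the Nodal and Activin pathway 4 fell and 1 rose, the median change was -0.45, 4 had both day 4 libraries above both day 2 libraries, and 11 had both day 4 libraries below both day 2 libraries (22% of all genes did so). Lefty2, a secreted Nodal antagonist that is itself a Nodal target (chromosome 1, 180893108 to 180899103, plus strand), fell from 8.34 and 7.96 to 6.39 and 5.77 (-2.07, adjusted p = 0.039). Lefty1, its neighbour on the chromosome (180935022 to 180938400), fell from 8.48 and 8.08 to 6.89 and 6.75 (-1.46, adjusted p = 0.0373). The copies resemble each other in sequence, and it is not known here how reads shared between them were counted. Tdgf1, the Nodal co-receptor Cripto, fell from 9.49 and 10.01 to 8.67 and 8.85 (-0.99, adjusted p = 0.0482), and Skil, a SMAD-binding repressor, from 10.17 and 10.34 to 9.49 and 9.59 (-0.71, adjusted p = 0.0418). Nodal itself was at 7.70 and 7.64, then 6.75 and 6.92, which missed the threshold (-0.83, adjusted p = 0.0596). All of these genes had non-overlapping days. Smad3, a transcription factor that carries the signal to the nucleus (chromosome 9, 63646767 to 63757994, minus strand), went the other way, from 7.82 and 7.70 to 9.43 and 9.13 (1.52, SE 0.16, adjusted p = 0.011). Cfc1, a co-receptor related to Tdgf1, had the widest difference of the list and was also higher, at 3.18 and 1.79, then 5.83 and 4.31, which did not pass (2.58, adjusted p = 0.102).

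Of 17 tested BMP genes 4 rose, the ligands Bmp2 and Bmp5, the inhibitor Chrd and the target Id4, and 1 fell, with a median of 0.39. Bmp2 rose from 3.52 and 3.18 to 5.40 and 5.47 (2.09, adjusted p = 0.029) and Bmp5 from 1.81 and 1.48 to 4.14 and 4.04 (2.44, adjusted p = 0.0349). Bmp7 was at 5.40 and 4.90, then 7.22 and 7.37 (2.14, adjusted p = 0.0518). Bmp4 differed the other way, from 5.45 and 4.06 to 3.89 and 3.87, which did not pass (-0.87, adjusted p = 0.368). The Id genes are usual targets of BMP signalling, and of these 3 only Id4 passed. It rose from 4.36 and 4.12 to 5.70 and 5.83 (1.52, adjusted p = 0.0489), whereas Id1 was at 4.65 and 4.34, then 4.92 and 5.25 (0.59, adjusted p = 0.261), and Id3 at 6.06 and 4.82, then 6.34 and 6.67 (1.07, adjusted p = 0.197). Grem1, a secreted BMP antagonist, fell from 4.49 and 5.69 to 1.66 and 2.28 (-3.12, adjusted p = 0.0303), a change of -3.72 without day 2 replicate 1 and -2.52 without day 2 replicate 2.

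Of 18 FGF pathway genes 0 were higher and 2 lower, with a median of 0.18. Fgf4, an FGF made by pluripotent cells, fell from 8.41 and 8.46 to 5.83 and 6.73 (-2.16, adjusted p = 0.0194). Etv5, an ETS factor downstream of FGF, fell from 11.08 and 10.84 to 10.37 and 10.25 (-0.65, adjusted p = 0.0427). Fgfr3, a receptor and the widest difference of the list, was at 1.87 and 0.00, then 5.05 and 4.37, just short of the threshold (adjusted p = 0.0541). Fgf8, an FGF of the streak, differed by 1.30 (adjusted p = 0.283), Fgf5, the epiblast FGF, by 0.99 (adjusted p = 0.38) and Dusp6, a feedback phosphatase, by 0.40 (adjusted p = 0.361).

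Among 12 streak transcription factors 1 rose and 0 fell, and the median change was 0.82. In 6 both day 4 libraries lay above both day 2 libraries (20.9% of all genes did so). None of the 12 was listed at 0 in all 4 libraries. Lhx1, a homeobox factor of the anterior streak (chromosome 11, 84518284 to 84525535, minus strand), rose from 3.57 and 3.74 to 7.48 and 7.05 (3.61, SE 0.68, adjusted p = 0.0434). T, which the reporter line tags (chromosome 17, 8434423 to 8442496, plus strand), had day 2 levels of 3.18 and 5.80 against 9.02 and 8.67 on day 4. The days did not overlap, and the change of 4.35 (SE 0.96) missed the threshold at an adjusted p of 0.0638. The day 2 libraries lay far apart, as did those of day 0 (6.23 and 4.05), and both differences enter the SE. The reporter's own sequence was at 0.75 and 0.00, then 4.50 and 2.97. Mixl1, a homeobox factor of nascent mesendoderm, was at 3.59 and 4.34, then 3.45 and 4.63, a difference of 0.07. Eomes, the T-box factor of endoderm and early mesoderm, was at 5.27 and 6.90, then 6.28 and 6.38 (0.25, adjusted p = 0.908). For both, the days overlapped. Gsc, an organizer factor, was low throughout, at 1.08 and 1.79, then 2.90 and 2.94 (adjusted p = 0.167). In day 2 replicate 2, 9 of the 12 factors were higher than in replicate 1, by a median of 0.71, against a median of 0.02 over genes with at least 10 scaled reads, and its part in these results was not tested.

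Of 9 notochord and axial mesoderm genes 6 rose and 0 fell, with a median of 4.15 that counts genes listed at 0 at that value. All 9 had both day 4 libraries above both day 2 libraries (20.9% of all genes did so, and 1.45% rose). Noto, the homeobox factor of the node and notochord (chromosome 6, 85423886 to 85428877, plus strand), had both day 2 libraries listed at 0 and stood at 5.79 and 4.13 on day 4 (adjusted p = 0.0198). Foxa2, the forkhead factor of axial mesoderm, floor plate and endoderm (chromosome 2, 148042877 to 148046969, minus strand), rose from 1.70 and 3.43 to 6.65 and 6.78 (4.15, SE 0.78, adjusted p = 0.0441). Its change was 3.29 without day 2 replicate 1 and 5.02 without day 2 replicate 2. The day 2 libraries lay apart and the day 4 libraries were close to each other. Those of day 0, which also enter the SE, were at 2.43 and 0.51. Chrd, a BMP antagonist secreted by the node (chromosome 16, 20733127 to 20742384, plus strand), rose from 2.91 and 1.09 to 6.87 and 6.20 (4.54, adjusted p = 0.0252), or by 5.44 without day 2 replicate 1 and 3.63 without day 2 replicate 2. Its exons overlap Thpo on the other strand. Shh, the Hedgehog ligand of notochord and floor plate, was at 2.91 and 0.00, then 6.09 and 5.52, which missed the threshold (adjusted p = 0.0576).

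Keratins and the cilia factor of the node rose too. Foxj1, Krt8 and Krt18 belong to the notochord list and are already counted among its 6 risers. Krt18, a keratin of simple epithelia (chromosome 15, 102028180 to 102032027, plus strand), rose from 6.04 and 5.99 to 8.99 and 8.99 (2.97, adjusted p = 0.0208), a 7.86-fold change. Its partner Krt8 rose from 5.88 and 5.42 to 8.51 and 8.53 (2.88, adjusted p = 0.0236). The replicates of Krt18 were nearly equal on each day, and neither gene overlapped between the days. Krt19 rose from 1.99 and 2.25 to 4.47 and 5.33 (2.78, adjusted p = 0.0259), and these 3 keratins were the only genes past the threshold among 14 epithelial genes (median 1.06). Foxj1, the master factor of motile cilia, rose from 2.73 and 1.79 to 6.32 and 5.34 (3.57, adjusted p = 0.0251). Pkd1l1, a channel-like protein of node cilia, rose from 2.26 and 2.25 to 8.01 and 6.94 (5.22, adjusted p = 0.00822). The other 16 of 18 tested cilia genes, among them dyneins and radial spoke genes, did not pass. Their list median was 0.82, and 16 of 18 stood higher in day 4 replicate 1 than in replicate 2, with a list median of -0.85 for replicate 2 minus replicate 1. Over genes with at least 10 scaled reads that median was -0.00489, and the part of this in the result was not tested.

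In definitive endoderm, 3 of 12 tested genes rose and 0 fell (1.45% of all genes rose, list median 1.56). These were Cer1, Foxa2 and Krt19, and the last 2 are also counted on lists above. Cer1, a secreted antagonist of Nodal, BMP and Wnt made by anterior endoderm (chromosome 4, 82881751 to 82885148, minus strand), rose from 2.25 and 2.98 to 7.76 and 7.70, or 34.7-fold (log2 5.12, SE 0.63, adjusted p = 0.0147). Sox17, an endoderm factor, was at 3.16 and 3.18, then 5.69 and 5.74, and missed the threshold (2.55, adjusted p = 0.0768). Its replicates were close on both days, while those of day 0, which also enter the p, were at 1.21 and 3.04. Foxa1, a relative of Foxa2, was at 2.73 and 0.00, then 5.82 and 5.18 (adjusted p = 0.0578), and Cxcr4, a chemokine receptor, at 5.53 and 4.99, then 7.24 and 6.57 (adjusted p = 0.0619). Gata4, Gata6 and Hhex, also endoderm factors, differed by -0.87, 0.12 and -0.50.

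Lists of other mesoderm differed in their counts. Of 10 paraxial and somite genes 2 rose (1.45% of all genes did so), Dll3 and Lfng, both of the Notch pathway (median 1.16). Tbx6, the factor of presomitic mesoderm, was at 1.08 and 1.79, then 3.29 and 1.81 (adjusted p = 0.408), and Meox2 was listed at 0 in all 4 libraries. Of 12 lateral plate and cardiac genes 0 passed in limma, with 0 at an unadjusted p under 0.05 (median -0.13), and with Hand2 and Nkx2-5 listed at 0 in all 4 libraries. Of 12 blood and endothelium genes 1 fell, Pecam1, an adhesion protein of endothelium also present on stem cells, by 1.68 (median -0.22). Among 12 neuromesodermal and caudal genes 0 passed in limma, with 3 at an unadjusted p under 0.05 (median 0.63). Hox genes of groups 1 to 4 had 0 of 12 past the threshold (3 at an unadjusted p under 0.05, median 0.40) and those of groups 5 to 13 had 0 of 19 (4 at an unadjusted p under 0.05, median -0.11).

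**Figure D3:**
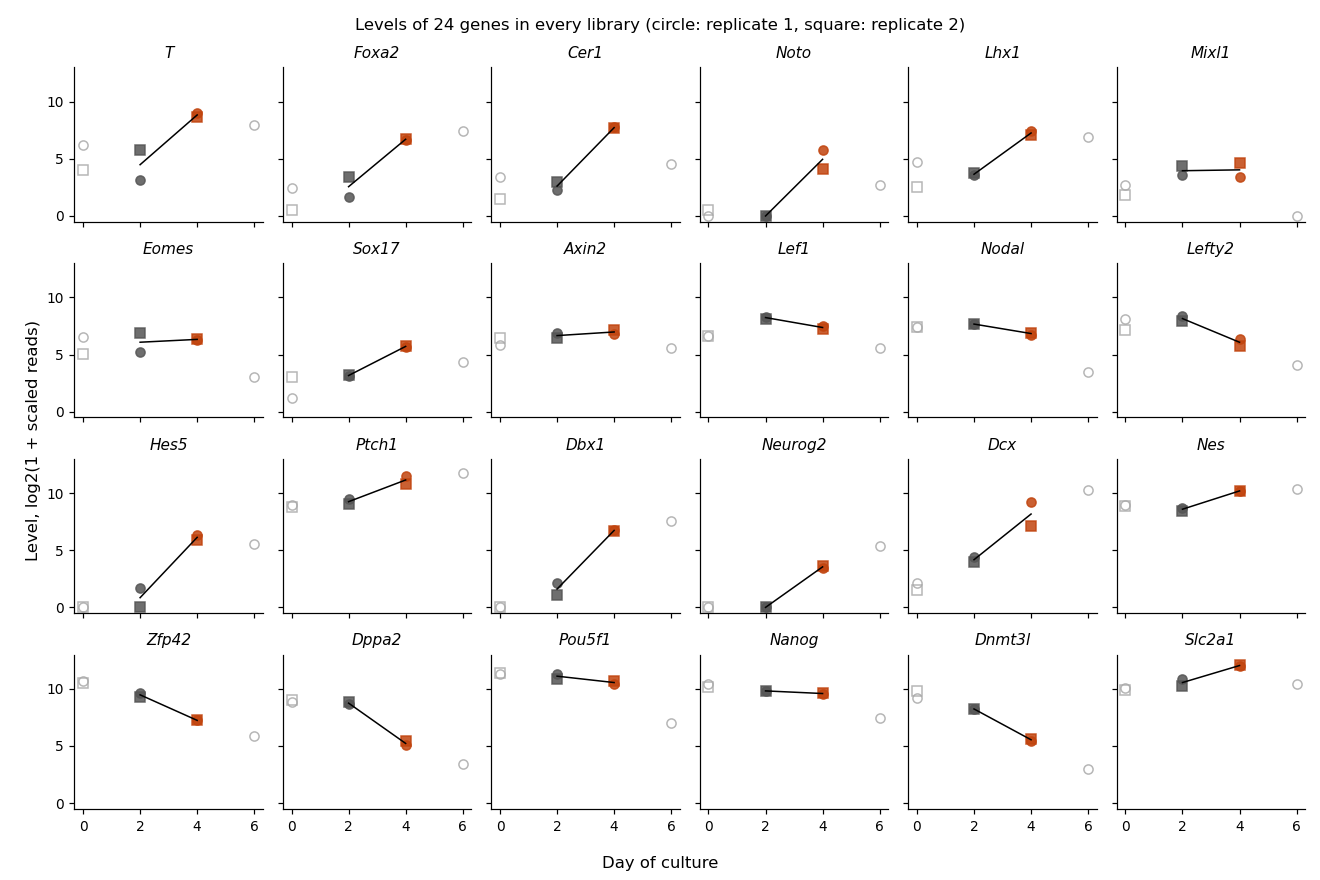
Level (vertical axis, log2 of 1 plus scaled reads) for 24 genes over the days of culture (horizontal axis), each symbol a library, with circles for replicate 1 and squares for replicate 2. Day 2 is grey and day 4 red, days 0 and 6 are open, and a line joins the means of days 2 and 4. Hes5, Cer1 and Dbx1 have the steepest lines among genes not listed at 0 throughout day 2, and Mixl1, Eomes and Axin2 overlap between the days.

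Neural regulators were among the risers too. The Notch pathway, in which a ligand on a cell activates a receptor on its neighbour and the receptor then switches on Hes genes, had 4 of 16 tested genes higher, 0 lower and a median of 1.29. In 13 of 16 both day 4 libraries lay above both day 2 libraries (20.9% of all genes did so, and 1.45% rose). Hes5, the Notch target that keeps neural progenitors from differentiating (chromosome 4, 154960923 to 154962371, plus strand), rose from 1.70 and 0.00 to 6.36 and 5.90 (5.28, SE 0.64, adjusted p = 0.0147). Without day 2 replicate 1 or 2 the change was 6.13 or 4.43. Its exons overlap Gm20421 on the other strand. The DNA-binding factor of the pathway, RBPJ, recognises GTGGGAA. RefSeq promoters (build GRCm38.p6, the 250 bases before the start) of Hes5 and Lfng are shown because both genes rose and both windows hold that motif, in capitals on either strand:
Hes5, chr4:154960673-154960922, plus strand: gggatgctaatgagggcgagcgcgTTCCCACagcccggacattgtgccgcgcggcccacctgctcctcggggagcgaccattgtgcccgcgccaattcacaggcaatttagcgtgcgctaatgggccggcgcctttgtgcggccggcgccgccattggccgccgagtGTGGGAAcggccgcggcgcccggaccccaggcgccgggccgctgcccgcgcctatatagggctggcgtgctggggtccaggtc
Lfng, chr5:140607091-140607340, plus strand: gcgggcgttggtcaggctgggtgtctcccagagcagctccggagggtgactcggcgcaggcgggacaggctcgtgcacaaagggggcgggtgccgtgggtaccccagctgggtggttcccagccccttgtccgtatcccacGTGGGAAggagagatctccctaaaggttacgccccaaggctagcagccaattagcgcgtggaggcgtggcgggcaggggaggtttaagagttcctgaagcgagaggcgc

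The motif occurred in 3 of the 12 Notch genes with a promoter in the table (Hes5, Hey2 and Lfng), or 25.0%, against 6.18% of all 27025 promoters. It occurred in 4.7% of 234 risers, 7.05% of 312 fallers and 6.48% of 14159 tested genes with a promoter. A letter match is a description and does not show that the site is bound. The TCF/LEF motif CTTTGAT was in 1 of 12 Wnt response promoters (Sp5), 2.56% of risers, 3.53% of fallers, 2.96% of tested genes and 3.72% of all. The FOXH1 motif AATNCACA, which partners Nodal signalling, was in 0 of 9 Nodal pathway promoters, 2.99% of risers, 3.21% of fallers, 2.87% of tested genes and 3.73% of all.

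Among the other Notch genes, Dll3, a ligand-like inhibitor of the pathway, rose from 3.46 and 3.26 to 5.87 and 5.56 (2.36, adjusted p = 0.0252). Lfng, which adds sugars to the receptor and alters its choice of ligand, rose from 3.84 and 3.50 to 5.72 and 5.53 (1.95, adjusted p = 0.0308). Notch1, the receptor, rose from 7.31 and 6.58 to 9.23 and 8.32 (1.83, adjusted p = 0.0498) and overlaps a gene on the other strand. Dll1, a ligand, was at 6.23 and 5.79, then 7.73 and 7.09 (adjusted p = 0.151), and Hey1, another target, at 4.12 and 5.04, then 6.09 and 5.83 (adjusted p = 0.0913). Both were separated between the days. Hes3, another Hes gene of the list, was separated the other way, at 5.63 and 4.85, then 3.75 and 3.99 (-1.37, adjusted p = 0.172).

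Hedgehog genes were also higher on balance, with 3 of 13 higher (1.45% of all genes), 0 lower and a median of 1.01. The risers were Ptch1, Smo and Foxa2, the last already counted on the notochord and endoderm lists. Ptch1, the Hedgehog receptor and a direct target of the pathway (chromosome 13, 63508328 to 63573598, minus strand), rose from 9.46 and 9.05 to 11.51 and 10.79, or 3.73-fold (1.90, adjusted p = 0.0184). Smo, the membrane protein that Ptch1 holds in check, rose from 8.66 and 8.37 to 9.60 and 9.45 (1.01, adjusted p = 0.0236). Gli1, a transcription factor and target, was at 6.84 and 5.56, then 7.49 and 7.13 (1.11, adjusted p = 0.187).

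Retinoic acid genes showed opposite moves at the largest members and a median of 0.17 over 15. Cyp26b1, which breaks retinoic acid down (chromosome 6, 84571414 to 84593908, minus strand), rose from 6.48 and 5.50 to 10.34 and 9.35, or 14.5-fold (adjusted p = 0.0133). Stra8, a retinoic acid-induced gene of meiotic entry, fell from 6.51 and 4.85 to 1.20 and 1.89 (-4.14, adjusted p = 0.0284), with a change of -3.31 without day 2 replicate 1 and -4.97 without day 2 replicate 2. Cyp26a1, the related enzyme of the streak region, was at 5.56 and 5.04, then 5.48 and 6.09 (adjusted p = 0.557).

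Homeobox factors that divide the neural tube from dorsal to ventral had 3 of 16 higher and 0 lower (median 1.33). Dbx1, of the intermediate neural tube (chromosome 7, 49631499 to 49636849, minus strand), rose from 2.12 and 1.09 to 6.75 and 6.71 (5.13, adjusted p = 0.00871). Nkx6-1, a ventral factor, rose from 3.54 and 2.38 to 6.13 and 6.09 (3.15, adjusted p = 0.04). Pax6, a factor of neural progenitors, rose from 5.93 and 5.69 to 7.38 and 6.91 (1.33, adjusted p = 0.0482). All 12 tested forebrain, midbrain and placode genes stayed short of the threshold in limma, with 4 at an unadjusted p under 0.05 (median 0.07). Of these, Otx2 was at 8.73 and 8.82, then 8.88 and 8.85.

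Proneural and neuronal bHLH factors, which start neuron formation, had 6 of 12 past the threshold, 0 lower and a median of 2.54. Fully separated upward were 9 of 12, against 20.9% of all genes, of which 1.45% rose. Neurog2 had both day 2 libraries listed at 0 and stood at 3.45 and 3.65 on day 4 (adjusted p = 0.0196). Neurog1 rose from 1.08 and 1.09 to 3.87 and 4.26 (2.98, adjusted p = 0.0281). Ebf2, a factor of early neurons, rose from 3.36 and 3.21 to 7.31 and 6.27 (3.50, adjusted p = 0.012). Nhlh1 rose from 3.36 and 3.38 to 6.63 and 5.56 (2.73, adjusted p = 0.0427), and Neurod4 from 2.73 and 3.18 to 5.33 and 5.30 (2.36, adjusted p = 0.03). The days of these 5 genes did not overlap, though Neurog1 and Neurog2 lay under the level of 3 reads on day 2.

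**Figure D4:**
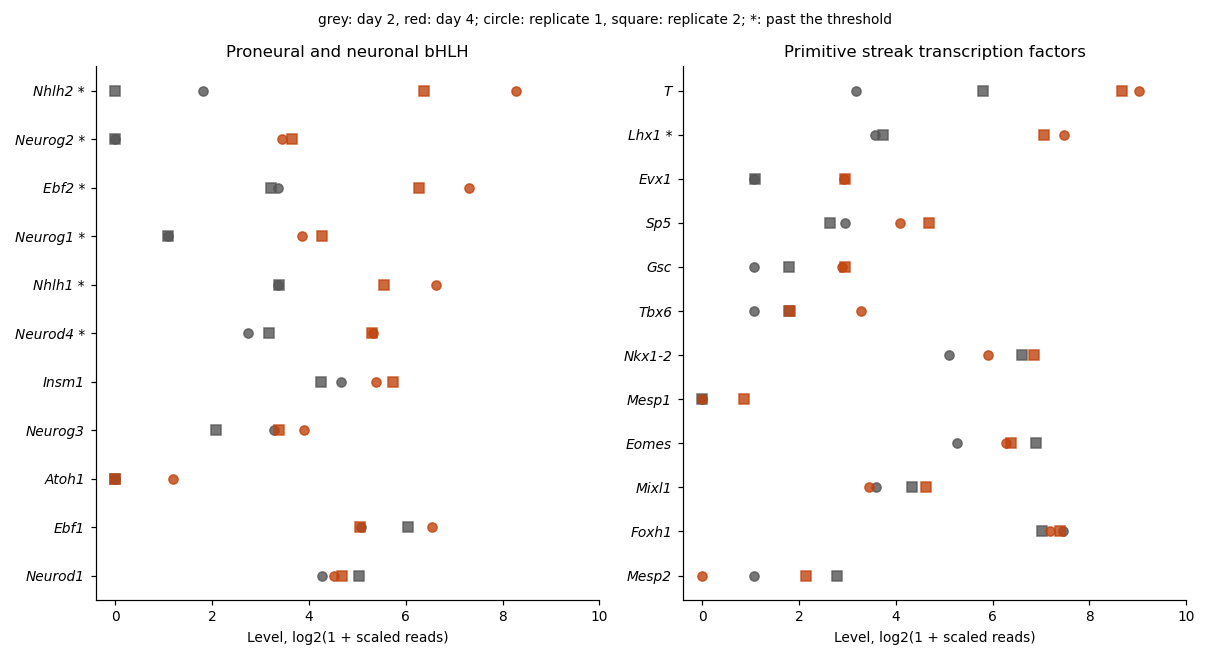
Levels (horizontal axis, log2 of 1 plus scaled reads) of 11 proneural and neuronal bHLH factors (left) and the 12 primitive streak transcription factors (right) in the 4 libraries, day 2 in grey and day 4 in red, circles for replicate 1 and squares for replicate 2, with an asterisk on genes past the threshold. On the left 6 names carry the asterisk and 8 rows are fully separated, on the right 1 and 6.

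Genes of neuron structure rose with them, 4 of 15 past the threshold and 0 lower (median 1.48). Dcx, a microtubule protein of migrating neurons, rose from 4.38 and 3.97 to 9.25 and 7.09 (4.00, adjusted p = 0.0329), and its change was 2.92 without day 4 replicate 1 and 5.07 without day 4 replicate 2. Map2, a dendrite microtubule protein, rose from 6.56 and 6.87 to 9.84 and 8.45 (2.43, adjusted p = 0.036), or 1.74 and 3.13 without those libraries. Elavl4, a neuronal RNA-binding protein, rose from 5.05 and 4.32 to 8.12 and 7.17 (2.96, adjusted p = 0.0262). Onecut1 had both day 2 libraries listed at 0 and stood at 4.30 and 3.97 (adjusted p = 0.0236). Day 4 replicate 1 was the higher in 12 of these 15 genes, with a median replicate difference of -0.95 (replicate 2 minus 1), and the part of this in the result was not tested. Of 16 progenitor genes 4 rose and 0 fell (median 0.73). Hes5 and Pax6 are among these risers and are already counted on lists above. Nes, the progenitor intermediate filament nestin (chromosome 3, 87971078 to 87980451, plus strand), rose from 8.73 and 8.46 to 10.22 and 10.17 (1.60, adjusted p = 0.00816), and Vim, vimentin, from 8.11 and 8.07 to 10.07 and 9.71 (1.80, adjusted p = 0.0114). Sox1, of the early neural plate, differed by 0.83 (adjusted p = 0.131) and Sox2, shared by stem cells and neural progenitors, by -0.20 (adjusted p = 0.525).

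Pluripotency genes fell unevenly. Among naive pluripotency genes 8 of 12 fell (2.13% of all genes did so) and 0 rose (median -1.63). All 12 had both day 4 libraries below both day 2 libraries, against 22% of all genes. Nr0b1, a nuclear receptor of the naive network, fell from 6.33 and 6.24 to 3.45 and 2.94 (-3.09, adjusted p = 0.00871). Zfp42, also called Rex1 (chromosome 8, 43295063 to 43306980, minus strand), fell from 9.64 and 9.31 to 7.25 and 7.23 (-2.24, adjusted p = 0.00755). The other fallers were Tbx3 (-2.25), Fgf4, Tfcp2l1 (-1.65), Klf4 (-1.61), Esrrb (-1.32) and Klf2 (-1.19). Klf4 and Tfcp2l1 were also the only fallers among 12 genes of the LIF and STAT3 pathway (median -0.16), where 0 rose.

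Core pluripotency genes had 5 of 12 lower and 0 higher (median -1.06). Dppa2, a chromatin factor of pluripotent cells (chromosome 16, 48303908 to 48319723, plus strand), fell from 8.69 and 8.81 to 5.05 and 5.40 (-3.53, SE 0.19, adjusted p = 0.00526), among the smallest p-values of the comparison. Its partner Dppa4 fell from 8.97 and 8.85 to 6.90 and 6.74 (-2.09, adjusted p = 0.00816). Gdf3, a TGF-beta family ligand, fell by 2.01 and Dppa5a by 1.55. The central factors did not pass: Nanog was at 9.82 and 9.82, then 9.51 and 9.67 (-0.23, adjusted p = 0.4), and Pou5f1 at 11.32 and 10.90, then 10.46 and 10.64 (-0.56, adjusted p = 0.107). Post-implantation epiblast genes had 2 of 11 lower, Dnmt3a and Lef1, and a median of -0.54.

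Genes of germ cells and of the 2-cell-like state were also lower. Of 12 germ line genes 2 fell (median -1.68), Stra8 and Tfap2c. Tfap2c, an AP-2 factor of germ cells, trophoblast and naive cells (chromosome 2, 172549593 to 172558622, plus strand), fell from 5.73 and 5.06 to 0.88 and 0.25 (-4.83, adjusted p = 0.00871). It was also the only faller of 9 trophoblast genes (median -0.13), where 0 rose. Zscan4 genes mark a rare state of cultures that resembles the 2-cell embryo, and 4 of the 7 genes of that list fell (median -3.29). Zscan4f went from 8.16 and 7.83 to 4.61 and 4.79 (-3.29, adjusted p = 0.00822), and Zscan4d fell by 3.93. Zscan4c fell from 6.73 and 6.62 to 0.85 and 2.32 (-5.08), with -4.35 and -5.82 without day 4 replicate 1 and 2. Zscan4b fell from 5.62 and 5.77 to 0.00 and 1.96 (-4.71), with -3.73 and -5.70 likewise. These copies are nearly identical, and reads may have been split among them.

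Of 12 writers and erasers of DNA methylation 5 fell and 0 rose, with a list median of -0.35. Dnmt3l, which stimulates de novo methylation (chromosome 10, 78041947 to 78063622, plus strand), fell from 8.25 and 8.23 to 5.47 and 5.61, or 6.49-fold (-2.70, SE 0.24, adjusted p = 0.00861). It overlaps Aire on the other strand. Dnmt3a, a de novo methyltransferase, fell from 10.69 and 10.39 to 9.60 and 9.60 (-0.94, adjusted p = 0.03), while Dnmt3b missed the threshold (-0.54, adjusted p = 0.0509). Tet1, which oxidises methylcytosine (chromosome 10, 62804570 to 62908996, minus strand), fell from 10.87 and 11.07 to 9.48 and 9.44 (-1.51, adjusted p = 0.00816), and Tet2 by 1.37. Gadd45a, tied to demethylation and to stress, fell by 1.80. Dnmt1, the maintenance enzyme, differed by 0.19 (adjusted p = 0.51). Tet3 went the other way, from 7.27 and 7.32 to 8.57 and 8.01, short of the threshold (1.00, adjusted p = 0.0607), and 3 of the 12 had both day 4 libraries above both day 2 libraries. The fallers thus held both enzymes that add the mark and enzymes that oxidise it. Of 16 Polycomb subunits 2 fell, Mtf2 (-1.05, adjusted p = 0.0147) and Eed (-0.84, adjusted p = 0.0305), both of the complex that methylates histone H3, and the median was 0.09.

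Glycolysis and hypoxia genes gave the largest count of rises of any list, 8 of 20 with 0 lower (1.45% of all genes rose, list median 0.82). Slc2a1, the main glucose transporter (chromosome 4, 119108711 to 119137983, plus strand), rose from 10.88 and 10.23 to 12.02 and 12.06, or 2.81-fold (adjusted p = 0.0206). Ldha, which turns pyruvate to lactate (chromosome 7, 46841475 to 46855627, plus strand), rose from 11.73 and 11.88 to 12.79 and 12.91 (1.04, adjusted p = 0.00971). Vegfa, the hypoxia-induced vessel growth factor, rose from 6.16 and 5.90 to 7.75 and 7.66 (1.68, adjusted p = 0.00951). The enzymes Pfkl (1.27), Aldoa (0.91), Tpi1 (0.89) and Pkm (0.76) and the transporter Slc2a3 (1.01) rose too. Day 0 levels of Vegfa, 7.76 and 7.85, were like those of day 4, so for this gene the low point was day 2. Ddit4, an inhibitor of mTORC1 induced by stress and low oxygen, rose from 7.59 and 8.43 to 9.68 and 10.03 (1.84, adjusted p = 0.0254), the only gene past the threshold of 14 in the ATF4 and serine synthesis list (median -0.13).

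Among the most abundant RNAs the mitochondrially encoded ones were lower. Of 13 protein genes of the mitochondrial genome, a set chosen after its values were seen, 5 fell, 0 rose, 10 were fully separated downward and the median was -0.74. mt-Cytb, a subunit of complex III (mitochondrial chromosome, 14145 to 15288, plus strand), fell from 13.87 and 13.87 to 12.88 and 12.98 (-0.94, adjusted p = 0.00816). mt-Nd1 (-0.79), mt-Nd2 (-0.79) and mt-Nd5 (-0.70), subunits of complex I, fell as well, and mt-Nd5 overlaps mt-Nd6 on the other strand. Lars2, the mitochondrial leucyl-tRNA synthetase encoded in the nucleus, rose from 11.89 and 12.09 to 12.84 and 12.84 (0.85, adjusted p = 0.0143). Hsp90aa1, an inducible chaperone, fell from 14.08 and 13.98 to 13.23 and 13.44 (-0.70, adjusted p = 0.0213), and Odc1, the first enzyme of polyamine synthesis, fell by 0.70. Scd2, a fatty acid desaturase, rose by 0.57 and Actg1, an actin, by 0.71. Exact values recur between these genes. The 13.87 of mt-Cytb on day 2 is also that of Pkm in day 4 replicate 2. The 12.84 of Lars2 on day 4 is also that of Actg1 in day 2 replicate 1. The values look quantile normalized, so a level here follows the rank of the gene in its library, and equal replicates mean equal ranks.

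Genes of fibroblasts and their matrix were mostly lower. Of 12 feeder fibroblast genes 7 fell and 0 rose (median -1.87), and their summed level was 10.77 and 10.30 on day 2 and 8.71 and 8.68 on day 4, with no member listed at 0 throughout. Fully separated downward were 9, and 1 was separated upward. That was Tagln, at 5.03 and 5.26, then 5.62 and 6.51, which did not pass (0.92, adjusted p = 0.141). Col1a1 (-1.86, adjusted p = 0.076) and Lum (-2.97, adjusted p = 0.0976) were lower and did not pass. Dcn, a collagen-binding proteoglycan, fell from 7.12 and 7.0 to 3.98 and 3.08 (-3.53, adjusted p = 0.0124), and Col6a1 from 7.79 and 7.57 to 4.92 and 4.88 (-2.78, adjusted p = 0.00816). Col3a1, a fibrillar collagen, fell from 8.99 and 8.25 to 6.37 and 5.06 (-2.90, adjusted p = 0.0255), with -3.56 without day 4 replicate 1 and -2.25 without day 4 replicate 2. Postn, Col1a2, Lox and Fbn1, also matrix proteins or their cross-linker, fell by 2.54, 1.88, 1.79 and 1.62. On day 0, on feeders, Postn stood at 10.17 and 9.98 and Col6a1 at 10.05 and 10.56, well above day 2, whereas Dcn stood at 7.74 and 6.95 and overlapped day 2. The labels say that cells left the feeders before day 2. Spp1, the secreted matrix protein osteopontin (chromosome 5, 104435118 to 104441050, plus strand), had the smallest p of the fallers with Dppa2, from 9.27 and 9.30 to 6.69 and 6.87 (-2.51, SE 0.13, adjusted p = 0.00526). On day 0 it was at 12.09 and 12.26.

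The largest falls held matrix genes and a mix of others. Mmp3, a matrix protease, fell from 5.03 and 4.70 to 0.00 and 0.86 (-4.43), Ltbp2, a matrix protein, from 5.04 and 4.71 to 0.00 and 0.86 (-4.45), and Nov, a matrix-associated CCN protein, from 4.10 and 4.56 to 0.00 and 0.86 (-3.90), where 0.86 is the level of 1 read. S100a6, a calcium-binding protein of fibroblasts, fell from 6.80 and 6.39 to 1.83 and 3.20 (-4.08), with -3.40 and -4.77 without day 4 replicate 1 and 2. Agtr2, an angiotensin receptor (chromosome X, 21484544 to 21489164, plus strand), fell from 6.60 and 6.35 to 1.20 and 1.34, both at or under the level of 3 reads (-5.21, adjusted p = 0.00594). Ugt1a7c, a detoxifying enzyme from a gene cluster with shared exons, fell from 4.59 and 5.69 to 0.00 and 1.18 (-4.55), with -5.14 to -3.96 without 1 library of either day. Cphx1, a homeobox gene of early embryos, read 4.45 and 2.82 on day 0 and 3.85 and 4.55 on day 2, and is listed at 0 in both day 4 libraries (adjusted p = 0.0283). Ttn, Capn3 and Wt1 were higher on day 2 than on day 0 or day 4. Ttn, the giant muscle protein, went from 6.08 and 6.61 on day 0 to 7.16 and 7.58 on day 2 and then to 2.64 and 2.14 on day 4 (-4.98, adjusted p = 0.00755). Capn3, a protease, went from 3.57 and 3.10 to 6.35 and 6.21, then to 1.45 and 1.22 (-4.95, adjusted p = 0.00816). Wt1, a zinc finger factor of kidney and mesothelium, went from 3.80 and 5.11 to 6.62 and 6.48, then to 2.64 and 2.21 (-4.13, adjusted p = 0.0154). The Stra8 values had the same shape.

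Ttn and Capn3 were the only fallers of 11 muscle genes, where 0 rose and the median was 0.96. Visceral endoderm genes had 1 of 10 lower, Rhox5, a reproductive homeobox gene (-1.76, median -0.51), with Apoa4 listed at 0 in all 4 libraries. Genes of epithelial-mesenchymal transition had Vim higher and Prrx1, a mesenchyme factor, lower (-2.22) of 12 (median -0.08), and laminin and basement membrane genes had Nid1, nidogen, lower (-1.37) of 14 (median 0.31). Of 12 neural crest genes Sox9, also a factor of progenitors and cartilage, rose from 3.76 and 3.43 to 6.35 and 5.50 (2.33, adjusted p = 0.0281, list median 0.72). Of 17 mitosis and replication genes Ccne1, cyclin E1, fell from 9.82 and 9.91 to 8.32 and 8.66 (-1.38, adjusted p = 0.0106, list median 0.07). Of 12 p53 targets Fas, a death receptor, fell from 3.0 and 3.42 to listed at 0 in both day 4 libraries (adjusted p = 0.0176, list median -0.30). Immediate early genes had 2 of 13 higher (median 0.90). Jun rose by 1.32, and Egr2 rose from 0.00 and 2.70 to 5.60 and 5.69 (4.29, adjusted p = 0.046), or by 2.94 without day 2 replicate 1 and 5.64 without day 2 replicate 2. Of 17 imprinted genes 4 rose and 1 fell (median 0.00). Plagl1, a growth regulator, rose by 2.39, Nnat, neuronatin, by 2.07, Sgce by 1.47 and Peg3 by 0.67, while the noncoding H19 fell from 9.76 and 9.04 to 7.69 and 7.48 (-1.81). Cholesterol synthesis had 0 of 14 genes past the threshold in limma (1 at an unadjusted p under 0.05, median 0.12), and the Lin28 and let-7 axis 0 of 11 (3 at an unadjusted p under 0.05, median 0.09).

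**Figure D5:**
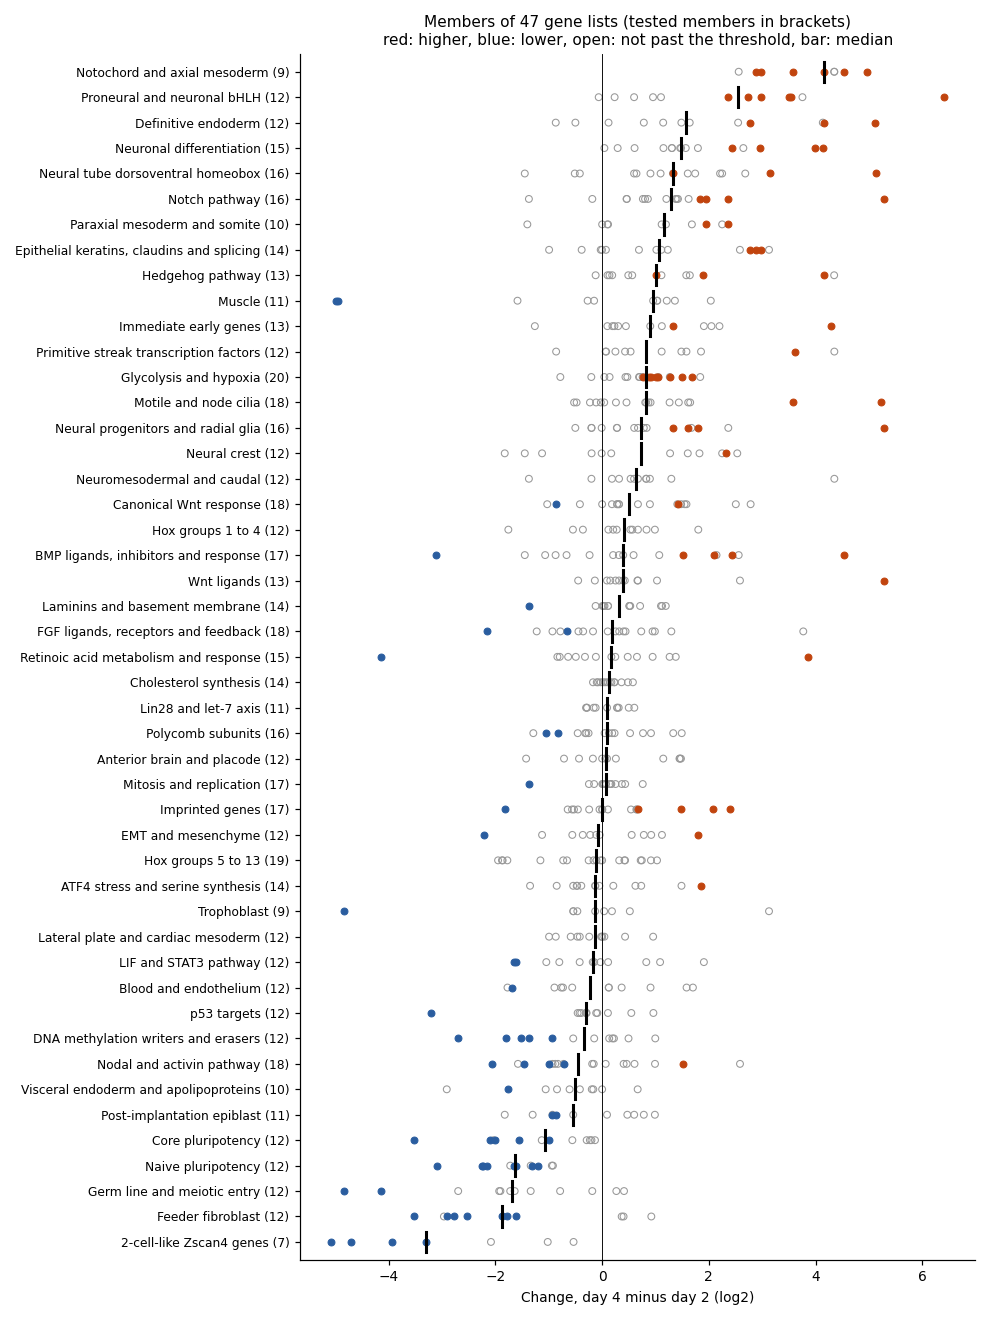
Change of each tested member (horizontal axis, log2, day 4 minus day 2) of the 47 gene lists (rows), with members past the threshold filled in red where higher and blue where lower, the rest open and a bar at the list median. Of the lists, 17 held risers and no fallers, 17 held fallers and no risers, 6 held both and 7 held neither, and the notochord list has the highest median at 4.15 and the Zscan4 list the lowest at -3.29.

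Levels of the called genes on the other days differed from gene to gene. The counts below are descriptions, since day 2 and day 4 values chose the genes and day 6 has 1 library. Choosing genes by their day 2 values also bears on any comparison of day 0 with day 2. The same shares over all genes were not counted, so these counts cannot be read as particular to the called genes. Of the 317 risers, 149 had been lower on day 0 than on day 2, and 37 had a day 0 mean at or above that of day 4, Vegfa among them. On day 6, 157 of the risers were above both day 4 libraries, among them Nkx6-1 at 8.44 and Nnat at 11.51, and 122 were below both, among them Foxj1 at 2.45. Of the 465 fallers, 256 had been higher on day 0 than on day 2 and 234 were lower still on day 6, as were Zfp42 and Dppa4 (5.23). In every faller outside the 256, Ttn, Capn3, Wt1 and Stra8 among them, day 2 was the high point of these 3 days. In 15 fallers the day 0 mean was at or below that of day 4.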

How the data were processed

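The study holds 7 RNA libraries of mouse embryonic stem cells from 4 days of culture (stranded kit per the labels), and 4 of the libraries, 2 a side, make up this comparison. The authors deposited 1 table of 30590 rows of natural log values, a unit inferred here from the values (natural log of 1 plus scaled reads, quantile normalized) and not stated in the labels. Per the submitters' processing notes the build was GRCm38. Neither the aligner nor the counting tool or its strand setting is named in the labels. All value columns matched a label (0 unmapped), and the column spelled with a letter O for zero was read as day 0 replicate 2.

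Dividing the deposited values by the natural log of 2 gave log2 levels. Left out were 103 rows of foreign sequence (a reporter row is quoted once) and 8674 genes at 0 everywhere, which left 21813 genes tested. Day 4 was set against day 2 with limma-trend with robust empirical Bayes (limma 3.58.1, R 4.3.3) in 1 fit of all 7 libraries with 3 residual degrees of freedom, and genes with a Benjamini-Hochberg adjusted p under 0.05 passed. Alternatives were a replicate block, the 4 libraries alone, 2 filters on low values, centring, a pseudocount of 8 in place of 1 and plain empirical Bayes. Each library of days 0, 2 and 4 was also left out in turn. Read depth was estimated from the steps between low values.

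The comparison and the 47 gene lists were chosen with earlier results of these data known. The text names the 15 largest rises, the 15 largest falls (predicted, ribosomal protein and histone genes aside, and with a mean of at least 10 scaled reads on the higher day), up to 4 members per list and direction past the threshold, up to 3 that did not pass, fixed markers, the most discordant and the most abundant genes. Not all of these are printed, and some other members are printed to fill in a list. The values of 1 list member are not reported here, though it counts in its list. List medians include genes listed at 0 at that value. Lists share members, so their counts are not independent. Positions come from GENCODE M21 and promoters from RefSeq (GRCm38.p6), for 234 of 317 risers and 312 of 465 fallers.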

Additional observations from a re-analysis of the deposited data

How the results depend on the processing

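With the replicate number as a block limma called 568 genes (221 higher, 347 lower), 522 of them among the 782. The numbers share only a number: replicate differences correlated at 0.222 between days 2 and 4 and at -0.058 and -0.066 between day 0 and days 2 and 4. The count was 1422 (625 higher, 797 lower) with genes of a mean of at least log2 of 11, 1621 (733 and 888) with genes at log2 of 4 or more in 2 of the 4 libraries, 335 (122 and 213) with plain empirical Bayes and 0 with the 4 libraries of days 2 and 4 alone. Leaving out 1 library gave 0 to 554 genes, 0 to 408 higher and 0 to 146 lower. Centring gave 791, and values that look quantile normalized leave it little to shift. A pseudocount of 8 gave 734. All 782 calls, where tested, kept their direction under each of these alternatives. Only centring could have turned a direction, since no call overlapped between the days. Of 129 named genes past the threshold, 106 passed with the block, 110 of 110 with the mean filter, 129 with the other filter, 129 with centring, 115 with the pseudocount of 8, 43 with plain empirical Bayes and 28 without day 4 replicate 2, and 0 in the other fits. The calls lost with the block were those of Lef1, Tdgf1, Id4, Bmp2, Bmp5, Foxa2, Lfng, Notch1, Nhlh1, Neurod4, Map2, Tbx3, Klf2, Dnmt3a, Slc2a3, Aldoa, Pkm, Actg1, Lox, Prrx1, Egr2, Sgce and Peg3 (adjusted p 0.0503 to 0.0713).

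Reversals were confined to genes short of the threshold and to 1 list median. Leaving out 1 library in turn gave -0.52 to 0.89 for Cdx2, -0.52 to 0.67 for Mixl1 and -0.57 to 1.06 for Eomes. The range was -1.27 to 4.70 for Zfp12, -1.27 to 4.02 for Dus2, -0.47 to 4.73 for Eri2, -6.83 to 0.12 for Snapc4, -6.20 to 0.61 for Dynlrb1, -3.65 to 1.09 for Pip5k1c and -0.12 to 4.48 for Eef1g, all picked for their discordant replicates. For the median of the muscle list it was 0 to 0.96, and the median was -0.32 with the mean filter. With at least 100 scaled reads the median replicate differences were 0.24 on day 2 and 0.19 on day 4.

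A fit without a library had 2 residual degrees of freedom against 3, as had the fit of the 4 libraries alone and the fit with the block. The cause of the differing counts was not tested. With 2 libraries a day, the spread of a single gene is poorly known. At 2640000 to 4340000 reads, levels under 1.81 to 2.30 lie within the limit of 3 reads.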
